A study of Mus musculus with 9 samples.

Results

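Cell cycle and DNA replication genes were followed in macrophages sorted from mouse lung, on 9 single-colour Illumina beadchip arrays. The set holds 48 genes, chosen by name for their role in the cycle, and 47 of them had at least 1 probe under their platform symbol or an older alias. Those 47 genes were read by 103 of the 46237 probes, and no probe carried the symbol Ccnb1, which encodes cyclin B1. In all, 35 members passed the filter on dim probes, out of 12246 genes that passed. Of the 48, 16 act in S phase, 22 act in mitosis, and 10 are G1 and S cyclins and kinases, inhibitors or the transcription factor E2f1.

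The series compared alveolar macrophages that lack Pparg, the gene of a lipid-activated nuclear receptor, with cells labelled wild type. The group titled Hom int pop held 3 arrays of cells labelled Pparg deficient, from mice of the genotype Pparg-/-.LysMCre. The group titled Hom Mph held 3 arrays of wild type cells, by their label, whose mice had that genotype too, and the group titled Het Mph held 3 arrays of cells labelled wild type from Pparg-/+.LysMCre mice. All mice were female C57/BL6 animals aged 8 weeks, and all groups carried a Cre driven by the LysM promoter, which is active in cells of the myeloid lineage. The sort used SiglecF and CD11b on the cell surface, and beyond it nothing states what separated deficient from wild type cells in Pparg-/-.LysMCre mice. The titles do not explain "int pop". Nothing says that the replicate numbers stand for separate mice, so p-values cover only variation among these samples, and that may be technical. By the chip numbers in the titles, all Hom int pop arrays lay on 1 chip and all 6 Mph arrays on the other, so chip and group cannot be told apart in any comparison of Hom int pop, while both Mph groups shared a chip.

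Cells that divide first load the MCM helicase onto replication origins in G1, then copy their DNA in S phase with deoxynucleotides supplied by ribonucleotide reductase and thymidine enzymes, and then separate the chromosomes with mitotic kinases, kinesins and spindle proteins. S phase genes are in large part switched on by the E2F factors. Mitotic genes are controlled by the DREAM and MuvB complexes at so-called CHR motifs, and by the factor NF-Y at its own motif. Alveolar macrophages are long-lived resident phagocytes that keep their number in part by dividing locally in the lung. In RNA from many cells, fewer dividing cells and less RNA per dividing cell cannot be told apart.

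Of the S phase and mitosis members whose 3 Hom int pop arrays all lay below the 6 Mph arrays, 4 had an entry in the RefSeq promoter table of build GRCm38.p6, and their 250 bases before the gene start are shown because these are the stretches in which cell cycle motifs usually lie. Capitals mark matches on either strand. The E2F letters were TTGGCGC and the variants with other middle bases, namely TTCCCGC, as well as TTGCCGC, and also TTCGCGC. The CHR letters were TTTGAA, and those of the NF-Y motif were CCAAT. Sequences read 5′ to 3′ on the strand of the gene. Rrm2 lies at chr12:24708004-24708253 (plus strand), Mcm5 at chr8:75109259-75109508 (plus strand), Mki67 at chr7:135716380-135716629 (minus strand) and Tacc3 at chr5:33657878-33658127 (plus strand).
Rrm2: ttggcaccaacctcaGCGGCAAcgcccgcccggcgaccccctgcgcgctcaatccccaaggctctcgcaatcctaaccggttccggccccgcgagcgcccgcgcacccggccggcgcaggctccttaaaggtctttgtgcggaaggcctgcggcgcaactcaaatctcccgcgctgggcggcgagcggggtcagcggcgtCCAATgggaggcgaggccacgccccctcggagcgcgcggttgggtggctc
Mcm5: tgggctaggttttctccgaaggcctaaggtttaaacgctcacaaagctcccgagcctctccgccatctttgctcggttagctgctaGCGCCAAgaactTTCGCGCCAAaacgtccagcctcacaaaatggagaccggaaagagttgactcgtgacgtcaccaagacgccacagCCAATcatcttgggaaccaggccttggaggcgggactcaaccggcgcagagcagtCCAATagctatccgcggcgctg
Mki67: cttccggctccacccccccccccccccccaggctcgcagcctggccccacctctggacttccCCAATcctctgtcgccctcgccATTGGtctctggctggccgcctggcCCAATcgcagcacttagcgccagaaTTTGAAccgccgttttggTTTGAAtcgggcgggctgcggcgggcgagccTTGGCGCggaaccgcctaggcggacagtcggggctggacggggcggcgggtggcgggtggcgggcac
Tacc3: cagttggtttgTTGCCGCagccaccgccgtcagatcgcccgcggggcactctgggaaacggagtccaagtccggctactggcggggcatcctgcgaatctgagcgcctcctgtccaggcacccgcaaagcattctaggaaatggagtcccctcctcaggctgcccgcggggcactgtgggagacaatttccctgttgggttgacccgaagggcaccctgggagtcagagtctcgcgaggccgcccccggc

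The Rrm2 stretch held 1 E2F match and 1 NF-Y match. The Mcm5 stretch held 3 E2F matches, of which a pair overlap on opposite strands, and 2 NF-Y matches. The Mki67 stretch held 1 E2F match, 2 CHR matches and 3 NF-Y matches, and the Tacc3 stretch held 1 E2F match. Over the members with an entry, E2F letters stood in 42.9% of S phase genes (6 of 14) and 22.2% of mitosis genes (4 of 18), against 9.01% of all 27025 genes of the table. CHR letters stood in 14.3% of S phase genes (2 of 14) and 55.6% of mitosis genes (10 of 18), against 18.3% of all genes, and NF-Y letters in 64.3% and 83.3% of the S phase and mitosis genes, against 37.5% of all genes. A match is a description of these letters and not a shown binding site.

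**Figure D1:**
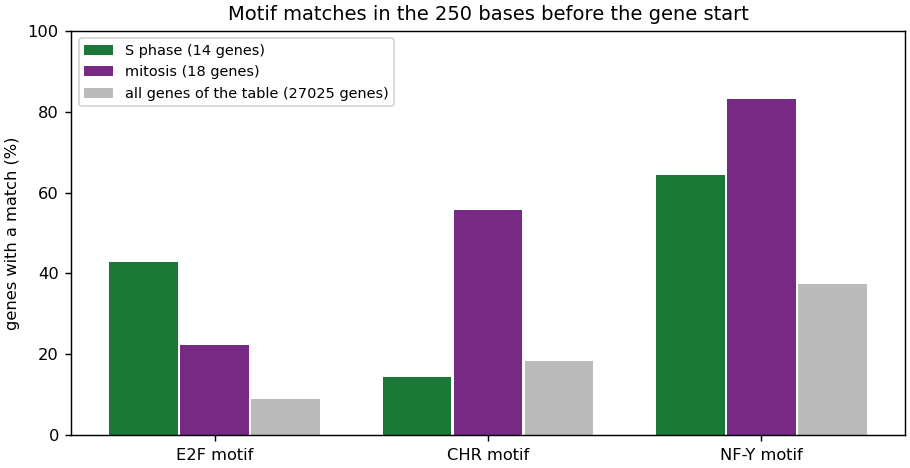
Share of genes (%, vertical axis) with at least 1 match to each motif in the 250 bases before the gene start, for 14 S phase members, 18 mitosis members and all 27025 genes of the promoter table. E2F matches were most frequent in the S phase members (42.9%) and CHR matches in the mitosis members (55.6%).

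The arrays had a median raw signal of 146.2, 159.6 and 184.2 in Hom int pop, of 145, 241.7 and 209.9 in Hom Mph and of 198.4, 217 and 290.3 in Het Mph, with 37.8% to 42.5% of the probes on an array above background, meaning a detection p under 0.05. Pparg read a log2 signal of 7.58, 7.23 and 7.76 in Hom int pop, of 9.71, 9.15 and 8.13 in Hom Mph and of 9.46, 9.36 and 9.55 in Het Mph, and where its probe lies relative to the deleted part is not known. Of 10 alveolar macrophage markers, 8 passed the filter, and Fabp4 and Ear2 did not. The linear signals of these 8 summed to 10600 to 11300 in Hom int pop, 13400 to 14600 in Hom Mph and 13400 to 14800 in Het Mph. Of the 8, Siglecf, the gene of the sorted surface protein, and Marco, a scavenger receptor, were called lower in Hom int pop than in both Mph groups (log2 differences -1.93, limma adjusted p = 0.0197, and -2.46, adjusted p = 0.0248), and Itgax, the gene of CD11c, differed by 0.54 (adjusted p = 0.3). Of 10 monocyte and interstitial macrophage markers, 7 passed, and their sum ran from 4740 to 7190 in Hom int pop, from 1670 to 2910 in Hom Mph and from 788 to 1040 in Het Mph. Ly6c2 and Ccr2 were among those that did not pass. These marker values moved with the groups, and their part in the values below was not tested.

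The first question was how far cells labelled Pparg deficient differed from both wild type groups in these genes. Transcripts of 2 members, Rrm2 and Stmn1, fell in Hom int pop against the mean of both Mph groups, and no member rose. The other 33 members were not called, but most read lower in Hom int pop: 29 of 35 members had a negative log2 difference, where 56.6% of all genes tested did. The median log2 difference over the 35 members was -0.60, beside -0.07 over all 12246 genes. Calls were made with limma at a Benjamini-Hochberg adjusted p under 0.05 over all genes tested, which called 0.768% of genes in either direction, 0.196% as lower and 0.572% as higher. At an unadjusted p under 0.05, 12 members were lower and 0 higher, beside 6.72% and 6.04% of all genes. The 12 include Mcm5, and the 29 and the median include Mcm5 and Kif22. Both passed the filter through Mph arrays alone, so they give these values no support. All 3 Hom int pop arrays lay below all 6 Mph arrays in 7 members (Mcm5, Rrm2, Cdk2, Mki67, Tacc3, Stmn1 and Cdkn1b), beside 3.3% of all genes, and above them in 0 members, beside 3.58%. Of these, Mcm5 passed the filter through Mph arrays alone. Its lowest Mph array read 4.24 beside 4.18 to 4.20 in Hom int pop, all at background, so that order carries no weight.

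**Figure D2:**
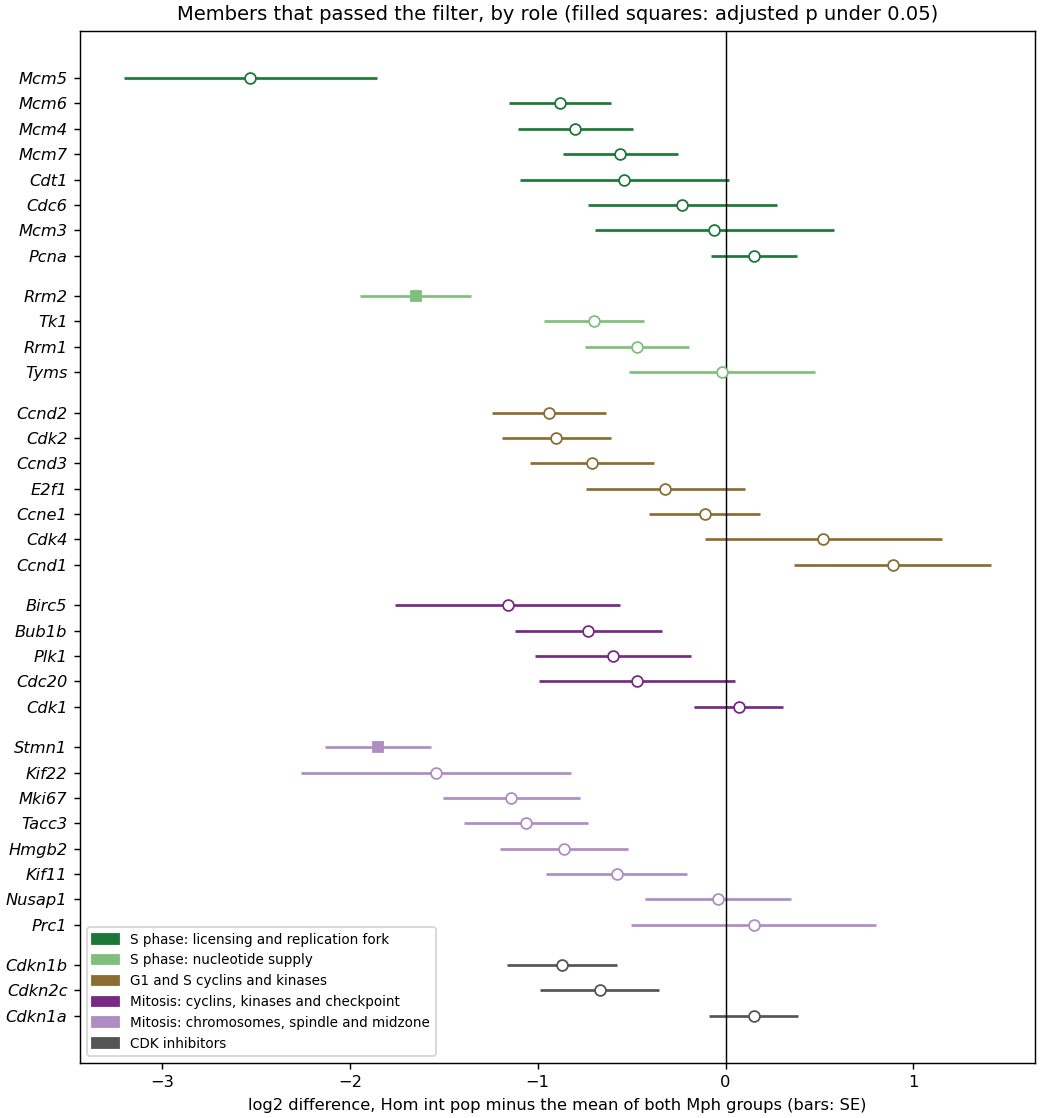
Log2 difference of Hom int pop minus the mean of both Mph groups (horizontal axis, bars show the SE of limma's fit) for the 35 members that passed the filter, by role. Rrm2 and Stmn1, drawn as filled squares, were called, 29 of the 35 members lie left of 0, and Ccnd1 has the largest positive value at 0.89. The 29 include Mcm5 and Kif22, which passed the filter through Mph arrays alone.

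Among the genes of nucleotide supply, Rrm2 encodes the small subunit of ribonucleotide reductase, which is made in S phase. Rrm2 read a log2 signal of 5.93, 6.98 and 7.08 in Hom int pop, against 7.84, 8.22 and 8.17 in Hom Mph and 8.68, 8.34 and 8.61 in Het Mph. The highest Hom int pop array lay below the lowest Mph array, and replicate 1 of Hom int pop lay furthest down. The log2 difference against both Mph groups was -1.65 (SE 0.294, limma adjusted p = 0.0406), a 3.14-fold lower signal, and an exact two-sided permutation test of the 9 arrays gave p = 0.0119, the smallest that 84 choices allow. A further Rrm2 probe differed by -1.45 and was not called (adjusted p = 0.17 over all passing probes). The call of Rrm2 was lost whichever of the 9 arrays was left out, with adjusted p from 0.0524 to 0.164, and also with the replicate block (0.0657), with no filter (0.064) and with both Mph groups as 1 group (0.0546). It was kept in the authors' normalized table, where the difference was -0.80 (adjusted p = 0.00458), without background correction (-0.80, adjusted p = 0.00534), without normalization between arrays and with the other choices of probe.

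Rrm1, the gene of the large subunit of the same enzyme, was not called. Its log2 signals were 7.73, 8.75 and 8.50 in Hom int pop, against 8.40, 8.68 and 8.34 in Hom Mph and 9.21, 8.81 and 9.32 in Het Mph. The Hom int pop arrays lay below the Het Mph arrays and overlapped the Hom Mph arrays (difference from both Mph groups -0.47, adjusted p = 0.522). Tk1, the cytosolic thymidine kinase of S phase cells, read 6.87, 5.97 and 6.91 in Hom int pop, against 6.99, 7.22 and 6.89 in Hom Mph and 7.39, 7.72 and 7.51 in Het Mph (-0.70, adjusted p = 0.319). Its highest Hom int pop array lay just above the lowest Hom Mph array, and all others lay below the Mph arrays. Tyms, thymidylate synthase, differed by -0.02 from both Mph groups, and Dut, the enzyme that clears dUTP, was above background on 1 array, of Hom Mph.

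Among the licensing and fork genes, 7 of the 8 members that passed had a negative difference, with a median of -0.55, and 0 were called (limma; 3 at an unadjusted p under 0.05). The 7 and the 3 include Mcm5, which passed the filter through Mph arrays alone. Mcm5, a subunit of the MCM helicase, read 4.20, 4.20 and 4.18 in Hom int pop, against 7.84, 7.22 and 4.24 in Hom Mph and 7.60, 6.68 and 6.79 in Het Mph. It was above background on no Hom int pop array, on 2 of 3 Hom Mph arrays and on all 3 Het Mph arrays, so replicate 3 of Hom Mph lay at background like Hom int pop. Against both Mph groups the signal was at least 3.69-fold lower in Hom int pop (limma adjusted p = 0.149), which takes the lowest signal above background on each Hom int pop array as its bound. Without Hom Mph replicate 3, Mcm5 was called (limma adjusted p = 0.00329), at least 5.39-fold lower in Hom int pop by the same bound, with values as normalized over all 9 arrays. That fit dropped the only Mph array that read like Hom int pop, and the Hom int pop values at background hardly varied (SD 0.01). Its call is therefore no separate support for a difference.

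Mcm6 and Mcm4 belong to the same helicase and were above background on every array. Mcm6 read 7.36, 6.42 and 6.69 in Hom int pop, against 7.27, 7.36 and 6.91 in Hom Mph and 8.51, 8.19 and 8.00 in Het Mph. Mcm4 read 8.99, 8.35 and 7.75 in Hom int pop, against 8.30, 8.82 and 9.01 in Hom Mph and 9.47, 9.80 and 9.63 in Het Mph. In both genes Het Mph stood above all other arrays, and Hom int pop overlapped Hom Mph. Their differences from both Mph groups were -0.88 (adjusted p = 0.205) and -0.80 (adjusted p = 0.32). The further passing probes of Mcm6 (-0.35) and Mcm4 (-1.27 and -0.95) had the same sign.

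Mcm7 differed by -0.56, and the helicase loaders Cdt1 and Cdc6 by -0.54 and -0.23, all with Hom int pop arrays that overlapped the Mph arrays. Mcm3 differed by -0.06. Pcna, the sliding clamp of the replication fork, read 6.37, 6.12 and 6.43 in Hom int pop, against 5.76, 6.06 and 5.83 in Hom Mph and 6.13, 6.77 and 6.38 in Het Mph. Its Hom int pop arrays lay above the Hom Mph arrays and overlapped the Het Mph arrays, and its difference of 0.15 from both Mph groups turned to -0.21 without normalization between arrays. Mcm2, another helicase subunit, was above background on 1 Hom Mph and 1 Het Mph array. Cdc45, a part of the active helicase, and Gmnn, geminin, the inhibitor of Cdt1, were above background on 0 arrays.

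Among the genes of chromosomes and spindle, 7 of the 8 members that passed had a negative difference, with a median of -0.96. The 7 include Kif22, which passed the filter through Mph arrays alone. Stmn1 encodes stathmin, a protein that destabilises microtubules and is abundant in dividing cells. Stmn1 read 5.51, 5.19 and 4.52 in Hom int pop, against 6.57, 6.37 and 7.01 in Hom Mph and 7.44, 6.99 and 7.15 in Het Mph. The groups did not overlap, and it was above background on 1 of 3 Hom int pop arrays and on all 6 Mph arrays. The log2 difference against both Mph groups was -1.85 (SE 0.282, limma adjusted p = 0.0191), a 3.61-fold lower signal, with an exact two-sided permutation p = 0.0119. Without background correction the log2 difference was -0.54 and was still called (adjusted p = 0.0221). The call was lost without any of the 3 Hom int pop arrays and without Het Mph replicate 1 or 3, with adjusted p from 0.0525 to 0.0906, and with the replicate block (adjusted p = 0.0515).

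Mki67 encodes Ki-67, the protein used most often to mark cycling cells. It read 6.43, 7.53 and 7.85 in Hom int pop, against 7.85, 8.42 and 8.81 in Hom Mph and 8.79, 8.53 and 8.05 in Het Mph. The highest Hom int pop array lay just below the lowest Mph array, at the same value to 2 decimals. Mki67 was not called (log2 difference -1.14, SE 0.366, adjusted p = 0.228, exact two-sided permutation p = 0.0119), and its dimmer probe differed by -0.13. Without Hom int pop replicate 1, the lowest array, the difference was -0.71. Tacc3, a spindle protein that binds microtubules with clathrin, read 4.94, 5.98 and 6.04 in Hom int pop, against 6.74, 6.55 and 7.07 in Hom Mph and 7.20, 6.26 and 6.46 in Het Mph. The groups did not overlap, and Tacc3 was not called (-1.06, SE 0.331, adjusted p = 0.214).

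Kif22, a kinesin that binds chromosomes, was above background on 0 of 3 Hom int pop arrays, on 1 Hom Mph array and on 2 Het Mph arrays. By the bound used for Mcm5, its signal was at least 2.23-fold lower in Hom int pop than in both Mph groups (limma adjusted p = 0.41). The Mph arrays below background entered that fold at their own values. Mcm5 and Kif22 passed the filter through Mph arrays alone. Hmgb2, a chromatin protein of dividing cells, differed by -0.86 and Kif11, the kinesin that separates the spindle poles, by -0.58. Nusap1 and Prc1, which bundle spindle microtubules, differed by -0.04 and 0.15. Top2a, the topoisomerase that untangles sister chromosomes, was above background on 1 Het Mph array, and the midzone kinesin Kif20a on 1 Hom Mph and 1 Het Mph array.

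The mitotic kinases and their partners were mostly dim. Of 12 listed, 5 passed, and 0 were called or had an unadjusted p under 0.05 at the probe that stood for the gene. Birc5 encodes survivin, a subunit of the chromosomal passenger complex, and read 6.01, 6.38 and 4.23 in Hom int pop, against 7.68, 6.71 and 7.31 in Hom Mph and 7.34, 6.28 and 4.88 in Het Mph. Its Hom int pop arrays lay below the Hom Mph arrays and overlapped the Het Mph arrays, which spread over more than 2 log2 units (difference from both Mph groups -1.16, adjusted p = 0.457). Without Hom int pop replicate 3 the difference was -0.51. A further Birc5 probe was above background on 0 of 3 Hom int pop arrays, on 3 Hom Mph arrays and on 1 Het Mph array. Against the mean of both Mph groups it was at least 2.34-fold lower in Hom int pop (limma unadjusted p = 0.0114, adjusted p = 0.25 over all passing probes). That bound was 3.95-fold against Hom Mph and 1.39-fold against Het Mph. The probe passed the filter through Mph arrays alone and is no support for a difference. Another Birc5 probe, above background on 1, 2 and 1 arrays of Hom int pop, Hom Mph and Het Mph, differed by -0.94. Bub1b, a spindle checkpoint kinase, read 6.28, 6.39 and 7.16 in Hom int pop, against 6.86, 8.25 and 6.53 in Hom Mph and 7.59, 7.64 and 7.16 in Het Mph (-0.73, adjusted p = 0.479). Plk1, polo-like kinase, read 5.34, 7.32 and 6.94 in Hom int pop, against 6.54, 6.70 and 7.00 in Hom Mph and 7.12, 7.66 and 7.80 in Het Mph (-0.60, adjusted p = 0.594). The low value of Plk1 in Hom int pop came from replicate 1, and without that array its difference was -0.00. Cdc20, an activator of the anaphase-promoting complex, differed by -0.47 and Cdk1, the mitotic kinase, by 0.07. The kinases Aurka, Aurkb and Bub1 and the cyclins Ccna2 and Ccnb2 were above background on 0 arrays, and the ubiquitin-conjugating enzyme Ube2c on 1 Hom Mph and 1 Het Mph array.

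Of the 7 cyclins and kinases of G1 and S phase, 5 had a negative and 2 a positive difference, and 0 were called (limma; 2 lower and 0 higher at an unadjusted p under 0.05). Cdk2, the kinase of S phase entry, read 7.00, 6.53 and 6.89 in Hom int pop, against 7.05, 7.73 and 7.31 in Hom Mph and 8.52, 8.17 and 7.47 in Het Mph. All Hom int pop arrays lay below all Mph arrays, by a narrow margin to Hom Mph replicate 1, and Cdk2 was not called (-0.90, adjusted p = 0.235). A further Cdk2 probe, above background on every array, read 7.57, 6.76 and 5.89 in Hom int pop. It read 7.83, 5.57 and 7.58 in Hom Mph and 7.93, 7.55 and 7.99 in Het Mph. At that probe Hom int pop overlapped Hom Mph (-0.67, limma adjusted p = 0.649 over all passing probes). Ccnd2, the cyclin D2 gene, read 7.27, 7.39 and 7.01 in Hom int pop, against 8.23, 8.12 and 6.97 in Hom Mph and 8.55, 8.46 and 8.63 in Het Mph (-0.94, adjusted p = 0.235). Here Hom Mph replicate 3 lay below every Hom int pop array.

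Ccnd3, cyclin D3, read 7.48, 8.90 and 8.36 in Hom int pop, against 8.91, 9.08 and 9.11 in Hom Mph and 9.15, 8.39 and 9.08 in Het Mph (-0.71, adjusted p = 0.41). Ccnd1, cyclin D1, which links growth signals to the cycle, read 8.19, 8.64 and 7.42 in Hom int pop, against 6.87, 6.93 and 8.02 in Hom Mph and 6.32, 6.52 and 8.50 in Het Mph. Replicate 3 stood apart from replicates 1 and 2 in all groups, downward in Hom int pop and upward in both Mph groups, so that the groups overlapped and the difference of 0.89 (SE 0.524, adjusted p = 0.519) was not called. The further Ccnd1 probe gave 7.77, 8.23 and 7.55 in Hom int pop, 5.87, 6.02 and 7.83 in Hom Mph and 6.40, 5.80 and 8.02 in Het Mph, the same order of arrays within Hom Mph. Cdk4, the partner of the D cyclins, read 7.52, 7.55 and 6.44 in Hom int pop, against 7.07, 7.89 and 5.48 in Hom Mph and 7.38, 6.99 and 5.07 in Het Mph (0.52, adjusted p = 0.776). Replicate 3 was the lowest array of each group. Ccne1, cyclin E1, differed by -0.11 and E2f1 by -0.32.

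The inhibitors of cyclin-dependent kinases showed no call either (limma; 1 of 3 at an unadjusted p under 0.05). Cdkn1b, the gene of p27, read 8.33, 8.04 and 8.21 in Hom int pop, against 9.61, 8.44 and 9.30 in Hom Mph and 9.02, 9.32 and 8.71 in Het Mph. All Hom int pop arrays lay below all Mph arrays (-0.87, SE 0.294, adjusted p = 0.258). Cdkn1a, the gene of p21, read 10.58, 10.05 and 10.03 in Hom int pop, against 10.23, 10.17 and 10.40 in Hom Mph and 9.78, 10.20 and 9.63 in Het Mph. Its groups overlapped (0.15, adjusted p = 0.834), and its other passing probes differed by 0.45 and -0.19. Cdkn2c, the gene of p18, read 5.16, 5.56 and 5.67 in Hom int pop, against 5.59, 6.41 and 5.95 in Hom Mph and 6.77, 5.60 and 6.46 in Het Mph (-0.67, adjusted p = 0.416).

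**Figure D3:**
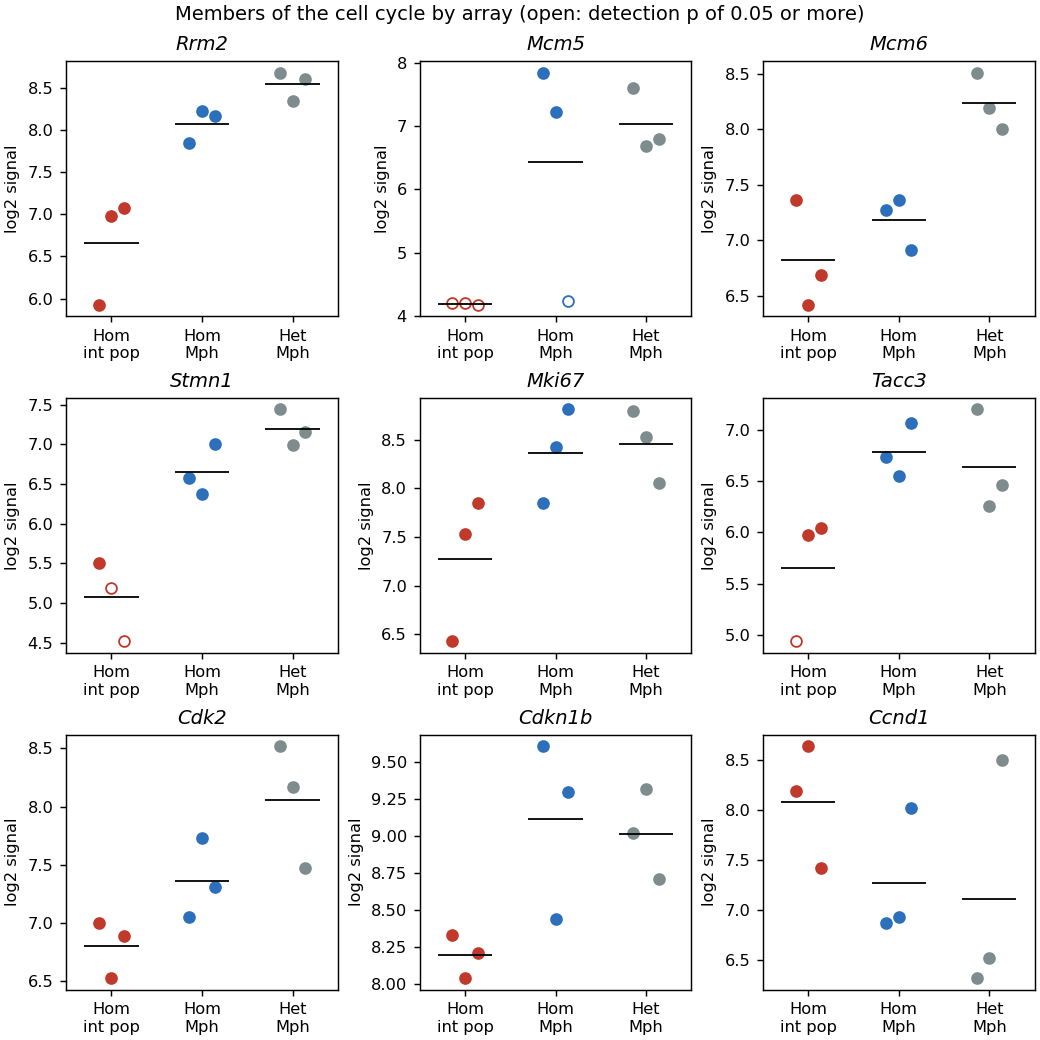
Log2 signal (vertical axis) on each array of 9 members, in Hom int pop, Hom Mph and Het Mph, with points in order of replicate 1 to 3, lines at the group means and open circles at a detection p of 0.05 or more. Rrm2 and Stmn1 in Hom int pop lie below all Mph arrays, Mcm6 stands highest in Het Mph, and Ccnd1 overlaps between groups.

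Taken array by array, the number of the 47 members above background at any probe was 27, 27 and 27 in Hom int pop, 34, 34 and 29 in Hom Mph and 35, 34 and 30 in Het Mph. The Hom int pop arrays lay below all Mph arrays in this count, while their share of all probes above background was 41.8%, 37.8% and 41.0%, against 41.0%, 42.5% and 40.5% in Hom Mph and 41.5%, 41.4% and 40.0% in Het Mph. For mitosis members the count was 8, 8 and 8 of 21 in Hom int pop, against 14, 11 and 10 in Hom Mph and 14, 11 and 11 in Het Mph. For S phase members it was 9, 9 and 9 of 16 in Hom int pop, against 10, 13 and 9 in Hom Mph and 11, 13 and 10 in Het Mph, so that replicate 3 of Hom Mph matched Hom int pop. Mcm2, Dut, Ube2c, Kif20a and Top2a, which did not pass the filter, were above background on only 1 or 2 Mph arrays each and on 0 Hom int pop arrays. The Mph groups held 6 of the 9 arrays, and the share of all genes with this pattern was not taken. It is therefore not read as a result about these members.

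**Figure D4:**
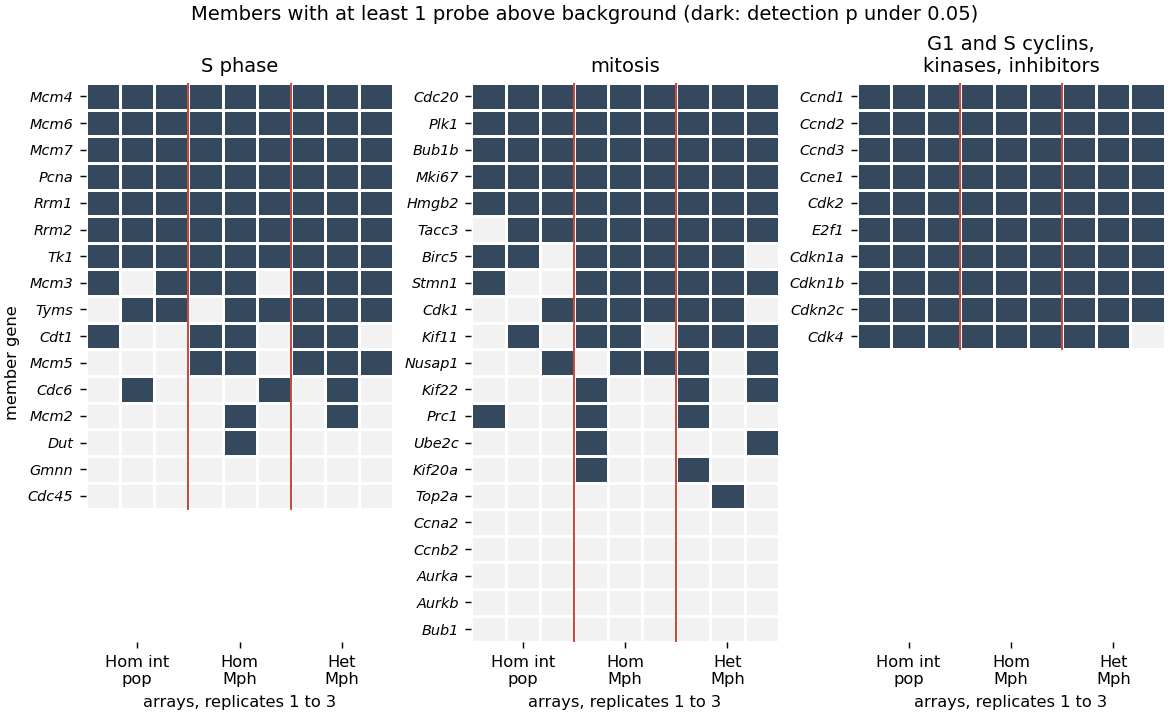
Members (rows) with at least 1 probe above background (dark cells, detection p under 0.05) on each of the 9 arrays (columns, replicates 1 to 3 of Hom int pop, Hom Mph and Het Mph), for S phase, mitosis and the remaining members. In Hom int pop 27 members were above background on each array, and 29 to 35 were in the Mph groups.

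The raw signals of Hom int pop were set against Hom Mph replicate 1 alone. Hom int pop replicate 1 had a median raw signal of 146.2, close to Hom Mph replicate 1 at 145, while Hom int pop replicates 2 and 3 were brighter, at 159.6 and 184.2. The raw Rrm2 signal was 174.4, 253.9 and 288.2 in Hom int pop, against 377.9 on Hom Mph replicate 1. The raw Stmn1 signal was 164.0, 173.6 and 175.5 in Hom int pop, against 200.4 on Hom Mph replicate 1. In these genes this dimmest Mph array thus lay above all 3 Hom int pop arrays before any correction. Of the 7 members whose arrays did not overlap after normalization, 5 showed this order, and Cdk2 and Tacc3 did not. The 7 were chosen on these same arrays and no share over all genes was taken, so this count is a description and not a test. The highest Hom int pop array read 274.6 in Cdk2, against 238.0 on Hom Mph replicate 1, and 228.0 in Tacc3, against 211.0.

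The next comparison took Het Mph alone as the control. Rrm2 and Stmn1 fell in Hom int pop against Het Mph too, with log2 differences of -1.88 (SE 0.34, limma adjusted p = 0.0336) and -2.12 (SE 0.326, adjusted p = 0.0151), in a comparison that called 1.05% of all genes, 0.269% as lower and 0.784% as higher. Of the 35 members, 30 had a negative difference, where 58.8% of all genes did, with a median of -0.81 (all genes -0.12). At an unadjusted p under 0.05, 16 were lower and 0 higher, beside 6.97% and 6.85% of all genes. The 3 arrays of each group did not overlap in 16 members, all lower in Hom int pop, beside 12.5% of all genes lower and 10.0% higher without overlap. Both counts of 16, and the 30, include Mcm5 and Kif22. These passed the filter through Mph arrays alone, so they give these counts no support. Mcm6 had the next smallest p, with a difference of -1.41 (adjusted p = 0.0736), and Mcm4 differed by -1.27 (adjusted p = 0.144). Mcm5 was at least 4.52-fold lower (adjusted p = 0.141) and Kif22 at least 3.16-fold lower (adjusted p = 0.311) in Hom int pop. The call of Rrm2 was lost without Hom int pop replicate 1 or 2, Hom Mph replicate 2 or any Het Mph array (adjusted p from 0.0508 to 0.127), with the replicate block (0.0556), with no filter (0.056) and with the 6 arrays of both groups alone (0.063). The call of Stmn1 was lost without Hom int pop replicate 2 or any Het Mph array (adjusted p from 0.0506 to 0.0686). Mcm5 was called with the 6 arrays alone (adjusted p = 0.00819) and without Hom Mph replicate 3 (adjusted p = 0.00615). Both fits left out Hom Mph replicate 3, which lay at background and widened the estimate of spread, so neither call is separate support. The smallest p that an exact permutation test of 3 against 3 arrays can give is 0.1.

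Against Hom Mph, the group with the same genotype label, limma called 0 members, with 7 lower and 0 higher at an unadjusted p under 0.05, beside 4.23% and 4.05% of all genes. That comparison called 0.196% of all genes in either direction. Of the 35 members, 27 had a negative difference, where 53.5% of all genes did, with a median of -0.36 (all genes -0.04). The 7 include Mcm5, and the 27 include Mcm5 and Kif22, both of which passed the filter through Mph arrays alone. Arrays did not overlap in 9 members that were lower (Mcm5, Rrm2, Ccnd3, Cdk2, Birc5, Mki67, Tacc3, Stmn1 and Cdkn1b), beside 6.7% of all genes, and in 1 that was higher (Pcna), beside 6.17%. For Mcm5 this order again rested on Hom Mph replicate 3, which lay at background like Hom int pop. Stmn1 differed by -1.58 (adjusted p = 0.149) and Rrm2 by -1.42 (adjusted p = 0.225), and Mcm5 was at least 3.01-fold lower (adjusted p = 0.46). Without Hom Mph replicate 3, Mcm5 was called here as well (limma adjusted p = 0.0119), at least 6.43-fold lower by the same bound. This again dropped the only Hom Mph array that read like Hom int pop. The comparisons with Het Mph and with Hom Mph share the Hom int pop arrays.

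The last comparison set both wild type groups against each other, on 1 chip. Limma called 0 members in Hom Mph against Het Mph, with 3 lower (Mcm6, Mcm4 and Kif11) and 0 higher at an unadjusted p under 0.05, beside 2.73% and 3.64% of all genes, in a comparison that called 0.0327% of all genes. Mcm6 differed by -1.06 (adjusted p = 0.584), Kif11 by -1.17 (adjusted p = 0.735) and Mcm4 by -0.93 (adjusted p = 0.744). Kif11 read 5.24, 4.88 and 4.58 in Hom Mph and 6.55, 5.77 and 5.89 in Het Mph, above background on 1 of 3 and on 3 of 3 arrays. Arrays did not overlap in 10 members that were lower in Hom Mph, beside 6.59% of all genes, and in 1 that was higher (Cdk1), beside 5.48%. The 10 were Mcm4, Mcm6, Pcna, Rrm1, Rrm2, Tyms, Tk1, Ccnd2, Plk1 and Kif11, of which 7 belong to S phase. Of the 35 members, 24 had a negative difference, where 56.4% of all genes did, and the median was -0.29 (all genes -0.07). Mcm5 differed by -0.59, and by 0.51 without Hom Mph replicate 3, the array at background.

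S phase and mitosis members were then set side by side. In Hom int pop against both Mph groups the median difference was -0.55 over 12 S phase members and -0.73 over 13 mitosis members. Against Het Mph the medians were -0.84 and -0.97, and against Hom Mph they were -0.33 and -0.60. Between the wild type groups, Hom Mph against Het Mph, the S phase median was -0.56 and the mitosis median -0.22. With each gene set to its mean over the 9 arrays, the S phase members averaged -0.40, -0.65 and -0.33 in Hom int pop, -0.11, 0.28 and -0.31 in Hom Mph and 0.49, 0.66 and 0.37 in Het Mph. By these means Hom Mph replicate 3 lay next to Hom int pop, and the Het Mph arrays stood highest. The S phase mean includes Mcm5, which passed the filter through Mph arrays alone and lay at background on Hom Mph replicate 3. By the median of the same members, Hom int pop read -0.23, -0.71 and -0.28, and Hom Mph -0.19, 0.11 and -0.23. Replicates 1 and 3 of Hom Mph then both lay next to Hom int pop, and Het Mph stayed highest. The mitosis members averaged -0.58, -0.42 and -0.51 in Hom int pop, 0.29, 0.12 and 0.03 in Hom Mph and 0.61, 0.20 and 0.27 in Het Mph, so that all Mph arrays lay above all Hom int pop arrays and the Mph groups overlapped. The mean over all genes tested, which quantile normalization holds near constant, lay between -0.05 and 0.04 on every array. The mitosis values include Kif22, which passed the filter through Mph arrays alone as well. All values here describe the members that passed, and the difference between the phases was not tested.

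**Figure D5:**
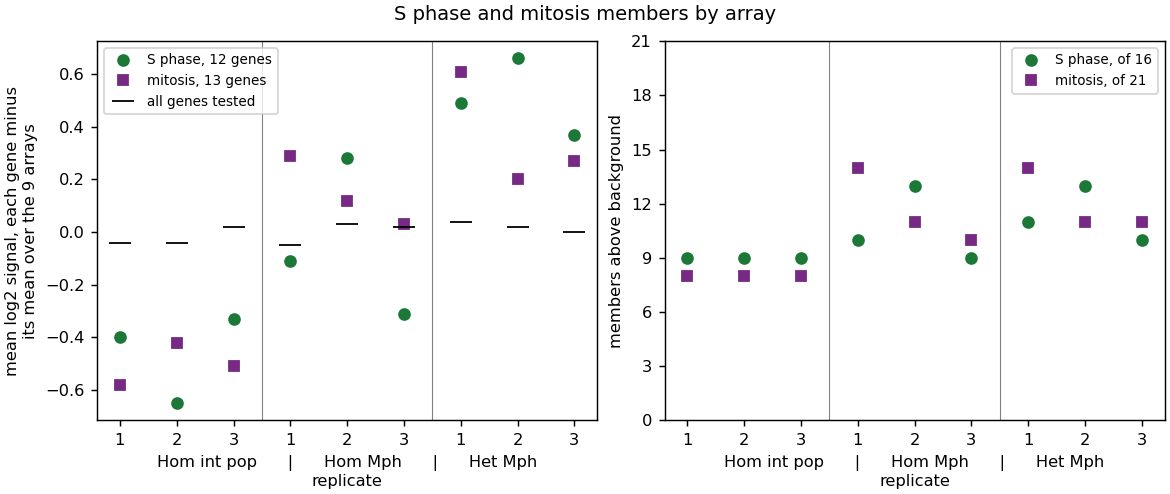
Left, mean over 12 S phase and 13 mitosis members of the log2 signal minus each gene's own mean over the 9 arrays (vertical axis), with black dashes for all genes tested, held near 0 by quantile normalization; right, members above background. Mitosis members lie at -0.58 to -0.42 in Hom int pop and at 0.03 to 0.61 on the Mph arrays, and S phase members are highest in Het Mph (0.37 to 0.66). The means include Mcm5 (S phase) and Kif22 (mitosis), which passed the filter through Mph arrays alone.

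Other genes of the pathway were read from a list of 151 that holds no member, of which 89 passed the filter. Limma called 0 of them in each of the 4 comparisons. Against both Mph groups, 11 were lower and 3 higher in Hom int pop at an unadjusted p under 0.05, beside 6.72% and 6.04% of all genes. A negative difference stood in 58 of the 89 (65.2%), where 56.6% of all genes had one, and the median was -0.21 (all genes -0.07). Of 33 replication genes, Timeless, a fork protection protein, had the smallest p (adjusted p = 0.0889). It was above background on 0 of 3 Hom int pop arrays, on 3 Hom Mph arrays and on 1 Het Mph array. Its signal was at least 1.89-fold lower in Hom int pop than in both Mph groups. That bound was 2.93-fold against Hom Mph and 1.22-fold against Het Mph. Timeless, like Pbk among the 11 lower genes, passed the filter through Mph arrays alone and is no support for a difference. Pold1, the catalytic subunit of DNA polymerase delta, differed by -1.59 (adjusted p = 0.207). Rfc2, a subunit of the clamp loader, differed by 0.72 (adjusted p = 0.18). Of 30 mitosis genes, Cdca8, borealin of the passenger complex, differed by -1.71 (adjusted p = 0.166) and the kinesins Kif23 and Kif15 by -1.54 (adjusted p = 0.212) and -1.08 (adjusted p = 0.337). Of 26 genes of G1 control, Mdm2, the ubiquitin ligase of p53, differed by 0.77 (adjusted p = 0.195), Myc by 1.06 (adjusted p = 0.249) and Ccng1 by -0.67 (adjusted p = 0.307).

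Markers of other cells that could carry cycle transcripts were read as well. Of 10 T, B and NK cell markers, 2 passed the filter, their sum ran from 53 to 134 in Hom int pop, from 109 to 151 in Hom Mph and from 119 to 125 in Het Mph, and Cd3d, Cd3g, Cd79a, Ms4a1, Nkg7, Ncr1 and Trbc2 were among those that did not pass. Of 7 neutrophil markers, 3 passed, with sums of 333 to 385 in Hom int pop, 248 to 453 in Hom Mph and 92.2 to 118 in Het Mph, and S100a9, Retnlg, Ly6g and Cxcr2 did not pass. Of 8 epithelial markers, 7 passed, with sums of 2080 to 2510 in Hom int pop, 1690 to 2030 in Hom Mph and 1780 to 2050 in Het Mph. A linear sum follows its brightest genes, and the single markers did not all move with it. Of the 7 epithelial markers, 4 had a positive and 3 a negative log2 difference from both Mph groups, with a median of 0.08. Of the 3 neutrophil markers, 2 had a positive and 1 a negative difference. The part of these cells in the members' values was not tested.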

How the data were processed

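RNA of 9 samples, in 3 groups of 3 arrays, was amplified and hybridised to single-colour beadchips, per the labels. The deposited table holds 1 linear intensity for each probe and array, not normalized by the name the authors gave the table. It also holds a detection p-value deposited by the authors, with no method stated. A further table of normalized intensity was deposited by the authors, its method also not stated. The files held 0 columns of no sample, and all arrays differed in their signals.

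The intensities were corrected for background with the nec function (normexp) of limma 3.58.1 in R 4.3.3, using an offset of 16 and the statistics of negative controls that the function derives from detection p-values. They were then quantile normalized and set to log2. The filter kept 21946 of 46237 probes, those detected (p under 0.05) on 3 or more arrays, and the brightest passing probe stood for a gene. Symbols came from the platform annotation, with 35784 probes of 1 symbol, 0 of several and 10453 of none, updated through a RefSeq table of GRCm38.p6. The fit (lmFit, eBayes) took 1 mean for each group and all 9 arrays together, and was tested on simulated data. A group below background on all its arrays has only a bound, and the fold is then written as "at least".

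Values on every array were given for members called in any comparison, for the 3 of each role with the smallest p against both Mph groups, for Mki67, Pcna, Ccnd1, Cdk4 and Cdkn1a, for up to 4 with the largest positive difference and for up to 3 with the smallest p between the Mph groups. Pathway genes with the smallest p were named, up to 3 per role. Members and lists were chosen with earlier results of these data known. Alternatives changed the background correction, normalization, filter, choice of probe, arrays fitted, control grouping and replicate block, and left out each array. The number of arrays limits the precision. Some single marker genes of other cell types are not reported here.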

Additional observations from a re-analysis of the deposited data

How the results depend on the processing

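The members' median difference against both Mph groups stayed negative under every alternative run, from -0.79 to -0.28. It was -0.28 without background correction and in the authors' normalized table, and with no filter it was -0.47 over 47 members (all genes -0.01). Without normalization between arrays it was -0.79, where the median of all genes was -0.29, and 28 of 35 members lay below that median. Against both Mph groups, 276 genes were called without background correction, 273 in the authors' table, 151 with every probe tested and 105 with no filter. There were 58 with the replicate block, 58 with both Mph groups as 1 group and 22 to 99 with 1 array left out. The members called were 3 without background correction (Mcm5, Rrm2 and Stmn1), 1 with no filter, 0 with the replicate block, 1 with the merged groups and 0 to 2 with 1 array left out. Against Het Mph, 348 genes and 5 members (Ccnd2, Mcm4, Mcm6, Rrm2 and Stmn1) were called without background correction, 323 genes and 4 members in the authors' table and 224 genes with every probe tested. No filter gave 137 genes and 1 member, the replicate block 106 genes and 1 member, and 6 arrays alone 170 genes and 2 members (Mcm5 and Stmn1). With 1 array left out, 44 to 156 genes and 0 to 4 members were called. Against Hom Mph, 67, 63 and 38 genes were called without background correction, in the authors' table and with every probe tested, 11 with 6 arrays alone, 0 with 6 arrays and the replicate block, and 7 to 28 genes and 0 to 1 members with 1 array left out. Between Hom Mph and Het Mph the counts were 15 without background correction, 2 without normalization between arrays, 21 in the authors' table, 0 with no filter, 2 with the replicate block, 0 with 6 arrays alone and 0 to 6 with 1 array left out. Same-numbered arrays of Hom int pop and Hom Mph had deviations that correlated at 0.17, -0.06 and 0.13, so the numbers were not taken to pair the samples. The cause of these changes was not tested.

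Small differences turned sign. Against both Mph groups, Pcna was at -0.21 without normalization between arrays and -0.01 in the authors' table, and Cdkn1a ran from -0.03 to 0.24 with 1 array left out. Against Het Mph with 1 array left out, Birc5 ran from -1.26 to 0.03, Cdk4 from -0.01 to 1.14 and Pcna from -0.27 to 0.05. Against Hom Mph with 1 array left out, Cdk4 ran from -0.31 to 0.90, Cdkn1a from -0.22 to 0.05, Kif11 from -0.49 to 0.25, Plk1 from -0.61 to 0.38 and Rrm1 from -0.36 to 0.15. Kif11 was also at -0.04 without background correction, -0.09 without normalization between arrays and -0.06 in the authors' table, and Cdkn1a at 0.00 with the mean of its probes. Between Hom Mph and Het Mph, Mcm5 ran from -1.30 to 0.51 with 1 array left out.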
